A study of Mus musculus with 4 samples.

Results

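The subject of this report is 7 subunit genes of the GABA-A receptor, *Gabra2*, *Gabra3*, *Gabra5*, *Gabrb1*, *Gabrb2*, *Gabrg1*, and *Gabrg3*, taken by their symbols from the 31053 genes of each count matrix. The matrices list 12 other genes of the receptor family, which enter only as counts. The study compared dorsal root ganglia (DRGs) of *Pirt*EGFPf mice, in which enhanced GFP takes the place of the *Pirt* coding sequence and is driven by the *Pirt* promoter, after chronic constriction injury (CCI) of both sciatic nerves or after sham surgery. All mice were heterozygous for this allele and 7 to 8 weeks old. On day 7 after surgery, L4-5 DRGs of 5 mice (20 DRGs) were pooled for each of 4 libraries, named Male-Sham and Female-Sham or Male-CCI and Female-CCI, and GFP+ cells were sorted for single-cell RNA sequencing of the 3' ends of transcripts. A sort on GFP leaves out neurons that do not use the *Pirt* promoter, many of them of the NF type. The male and female libraries of a surgery served as its 2 replicates, so that a difference between the sexes adds to the spread, and mice of 1 litter all had the same surgery, so that litter and surgery cannot be told apart.

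The libraries held from 195684124 to 237069156 unique molecular identifiers (UMIs), and 15715 of 23691 cells were kept, of which 15133 were neurons (3281 and 5398 in Male-Sham and Female-Sham, 2817 and 3637 in Male-CCI and Female-CCI). No library shared more than 6 of its kept cell barcodes with another. Neurons were clustered and the clusters named from marker genes as neurofilament-positive (NF1, NF2), non-peptidergic (NP1, NP2, NP3), peptidergic (PEP1, PEP2, PEP3/4, PEP5), C-fiber low-threshold mechanoreceptor (cLTMR), and CCI-induced (CCI-ind) classes. These names were rebuilt from the deposited counts and each stands for cells like that class (NF1 for NF1-like cells), and 1 cluster of 263 neurons led by *Calb1* stayed unnamed. Neurons with a normalized *Sprr1a* value above 1 were called *Sprr1a*+, *Sprr1a* being a gene that injured sensory neurons switch on, and they made up 1.28% (0.924 to 1.73%) and 2.67% (2.25 to 3.13%) of neurons in the sham libraries and 52.1% (50.2 to 53.9%) and 49.2% (47.5 to 50.8%) in the CCI libraries. CCI-ind neurons made up 1.34 and 2.58% against 45.0 and 44.0%. Intervals of shares are exact binomial 95% intervals and cover counting error only. Exact intervals of ratios, given where a side had few UMIs, add up the libraries of a side and also cover counting error only. The UMIs of a gene were added up over the neurons of a class within a library, and a level is given as the gene's UMIs per 1000000 UMIs of those neurons (CPM). Summed counts cannot tell fewer cells of a kind from less RNA in each. The level of a gene depends on how well its 3' end is captured, so levels are compared between classes and not between genes.

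GABA-A receptors are chloride channels opened by the inhibitory transmitter GABA and built from several subunits around a pore, in most neurons alpha, beta, and gamma subunits together. Alpha subunits and beta subunits form the GABA binding sites, the alpha and gamma subunits set the response to benzodiazepines, and the gamma subunit helps to hold receptors at synapses. Sensory neurons keep a high chloride concentration, so that GABA depolarizes them, and receptors on their central terminals take part in presynaptic inhibition in the spinal cord.

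The genes lie in 4 places on the mouse genome (GRCm38, GENCODE annotation). *Gabrg1* (chr5:70751047-70842617, minus strand), *Gabra2* (chr5:70957597-71095849, minus strand), and *Gabrb1* (chr5:71658113-72149037, plus strand) are neighbors, with 115 and 562 kb between them. *Gabrg3* (chr7:56716465-57387188) and *Gabra5* (chr7:57407672-57510059) lie 20.5 kb apart, both on the minus strand, *Gabrb2* spans chr11:42419757-42629028 on the plus strand, and *Gabra3* chrX:72432681-72656848 on the minus strand. *Gabra5* and *Gabrb1* each overlap 1 protein-coding gene of the other strand. No other protein-coding gene overlaps the other 5 genes.

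RefSeq start sites gave 11 promoter windows of 300 bases for the 7 genes (250 bases before the start to 50 after it, GRCm38.p6). The windows of *Gabrg1* and *Gabra5* are printed because these genes rose together in injured NF1 neurons, and those of *Gabra2* and *Gabrg3* because they are the neighbors of these genes on the chromosome. Each is written 5' to 3' on the gene's own strand, with CCAAT or its reverse complement ATTGG in capitals.
Gabrg1, chr5:70842568-70842867: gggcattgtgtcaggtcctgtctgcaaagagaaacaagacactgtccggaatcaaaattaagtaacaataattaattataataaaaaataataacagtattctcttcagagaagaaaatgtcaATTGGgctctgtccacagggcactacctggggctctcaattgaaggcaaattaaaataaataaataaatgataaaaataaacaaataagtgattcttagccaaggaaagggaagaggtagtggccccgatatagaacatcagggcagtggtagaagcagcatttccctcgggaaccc
Gabra2, chr5:71095800-71096099: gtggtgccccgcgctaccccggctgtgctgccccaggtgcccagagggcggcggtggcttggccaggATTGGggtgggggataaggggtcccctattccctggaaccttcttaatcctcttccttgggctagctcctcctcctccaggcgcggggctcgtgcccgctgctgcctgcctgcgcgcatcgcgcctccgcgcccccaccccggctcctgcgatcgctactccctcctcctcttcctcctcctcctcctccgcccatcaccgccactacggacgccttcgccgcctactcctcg
Gabra5, chr7:57510010-57510309: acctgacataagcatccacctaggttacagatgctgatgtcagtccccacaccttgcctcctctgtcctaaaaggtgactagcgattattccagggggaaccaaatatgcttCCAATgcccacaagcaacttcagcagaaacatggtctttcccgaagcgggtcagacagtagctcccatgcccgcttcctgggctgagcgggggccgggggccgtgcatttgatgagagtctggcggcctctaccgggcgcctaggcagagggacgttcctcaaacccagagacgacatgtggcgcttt
Gabrg3, chr7:57387166-57387465: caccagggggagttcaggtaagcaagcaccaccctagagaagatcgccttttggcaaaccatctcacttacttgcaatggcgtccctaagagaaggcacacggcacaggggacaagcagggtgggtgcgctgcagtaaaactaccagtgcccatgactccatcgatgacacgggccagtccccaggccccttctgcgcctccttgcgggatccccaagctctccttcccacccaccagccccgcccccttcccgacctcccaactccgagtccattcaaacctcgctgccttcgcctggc
The window of *Gabrg1* holds 38.3% G and C and 3 CpG dinucleotides, that of *Gabra5* 56.7% and 13, that of *Gabrg3* 61% and 13, and that of *Gabra2* 70% and 25, against a median of 52.67% and 7 over all 32851 RefSeq windows. CCAAT in either direction, which is found in 37.41% of all windows, occurs in 6 of the 11 windows, 1 time each in *Gabrg1*, *Gabra2*, and *Gabra5* and not in *Gabrg3*. The windows of *Gabra3* overlap and hold the same 2 matches, so the 11 windows are not separate units. TGACTCA (or TGAGTCA on the other strand), found in 5.202% of all windows, and TGACGTCA, which reads the same on both strands and is found in 1.79%, occur in none of the 11. These are matches of letters in short windows and were not tested as sites.

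The levels of the 7 genes in the classes of sham neurons are a description with no test, since 6 of the 7, all but *Gabrb2*, were among the 3000 genes used for clustering. *Gabra2* was found in every class. It was highest in cLTMR neurons, with 115 and 108 CPM in Male-Sham and Female-Sham, followed by NF2 (96.5 and 90.7 CPM) and NF1 (85.5 and 90.5 CPM). The cLTMR levels stood apart, while NF2 and NF1 all but met in the female library, and all 3 stood above every other class, of which PEP5 was next at 44.0 and 41.7 CPM. NP3 (23.6 and 19.8 CPM), PEP3/4 (22.01 and 19.7 CPM), and NP1 (19.9 and 16.4 CPM) were the lowest and overlapped with one another. cLTMRs sense gentle touch with unmyelinated fibers, whereas NF neurons have myelinated fibers and include touch receptors and proprioceptors.

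The alpha subunit *Gabra3* was high in few classes. It was highest in the unnamed *Calb1*-led cluster (31.0 and 38.4 CPM), in PEP5, the *Trpm8*-marked class of cold-sensing neurons (25.6 and 25.9 CPM), and in cLTMR neurons (24.6 and 22.6 CPM). NF1 followed with 11.4 and 7.76 CPM, and PEP2, the next, had 2.00 and 2.41 CPM. No *Gabra3* UMI was found in the 88 and 86 NP1 neurons of sham. The NF1 level was the mean of unequal clusters. The NF1 cluster led by *Pvalb*, a marker of proprioceptors, had 33.4 and 29.2 CPM, and the cluster led by *Ntng1* had 1.35 and 1.02 CPM.

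*Gabra5*, an alpha subunit known mainly from receptors outside synapses, was highest in the NF classes. NF1 had 6.26 and 8.73 CPM, NF2 5.81 and 5.19 CPM, and PEP5 3.53 and 3.24 CPM. These 3 classes were separate from one another and from the rest, and the remaining classes, from PEP1 (1.16 and 1.43 CPM) to NP1 (0 and 0.847 CPM), overlapped with their neighbors in the order.

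The beta subunit *Gabrb1* followed another order. The unnamed cluster had 85.7 and 98.8 CPM, PEP5 60.9 and 52.9 CPM, PEP2 37.2 and 34.1 CPM, cLTMR 29.7 and 28.6 CPM, NF2 26.1 and 22.3 CPM, and NF1 14.9 and 17.8 CPM, each without overlap with the next class in this order. NP1, NP2, NP3, and PEP1 were far lower, NP2 being the highest of them at 0.768 and 0.919 CPM. Within PEP2 the gene was uneven, with 62.0 and 68.4 CPM in the cluster led by *Tmc3* and 10.4 and 7.33 CPM in the cluster led by *Col25a1*, and within NF1 it was higher in the *Ntng1*-led cluster (19.7 and 22.2 CPM) than in the *Pvalb*-led one (4.42 and 3.66 CPM). *Gabrb2* was scarce, with 43 and 30 UMIs over all neurons of the sham libraries, of which 18 and 18 came from NF1 neurons (1.39 and 1.75 CPM). No *Gabrb2* UMI was found in NF2, NP1, NP2, NP3, PEP1, or PEP3/4 neurons of sham, where 3 UMIs, the most a count of 0 allows, would amount to between 0.0835 and 0.847 CPM.

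The gamma subunits were highest in different classes. *Gabrg1* was highest in NF1, where neurons had 39.9 and 35.9 CPM, and 516 of 620 and 370 of 516 *Gabrg1* UMIs of the sham libraries came from their 148 and 165 cells. Both NF1 clusters had it (39.4 and 38.1 CPM in the *Ntng1*-led and 41.0 and 28.8 CPM in the *Pvalb*-led cluster). The unnamed cluster (8.62 and 3.39 CPM) and PEP2 (3.76 and 5.60 CPM) came next and overlapped, and in PEP2 the UMIs lay in the *Tmc3*-led cluster (7.24 and 12.8 CPM), with none in the *Col25a1*-led one. *Gabrg3* was highest in PEP2, with 52.4 and 42.6 CPM, and 418 of 859 and 548 of 1004 *Gabrg3* UMIs of the sham libraries came from these neurons. In PEP2 the *Tmc3*-led cluster had 86.4 and 75.1 CPM and the *Col25a1*-led cluster 15.6 and 17.3 CPM. PEP5 (8.65 and 9.30 CPM), PEP3/4 (7.75 and 4.76 CPM), PEP1 (4.30 and 3.95 CPM), and NF2 (4.44 and 3.65 CPM) followed. cLTMR neurons, where *Gabra2* was highest, had no *Gabrg3* UMI and 0.765 and 0.649 CPM of *Gabrg1*.

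**Figure D1:**
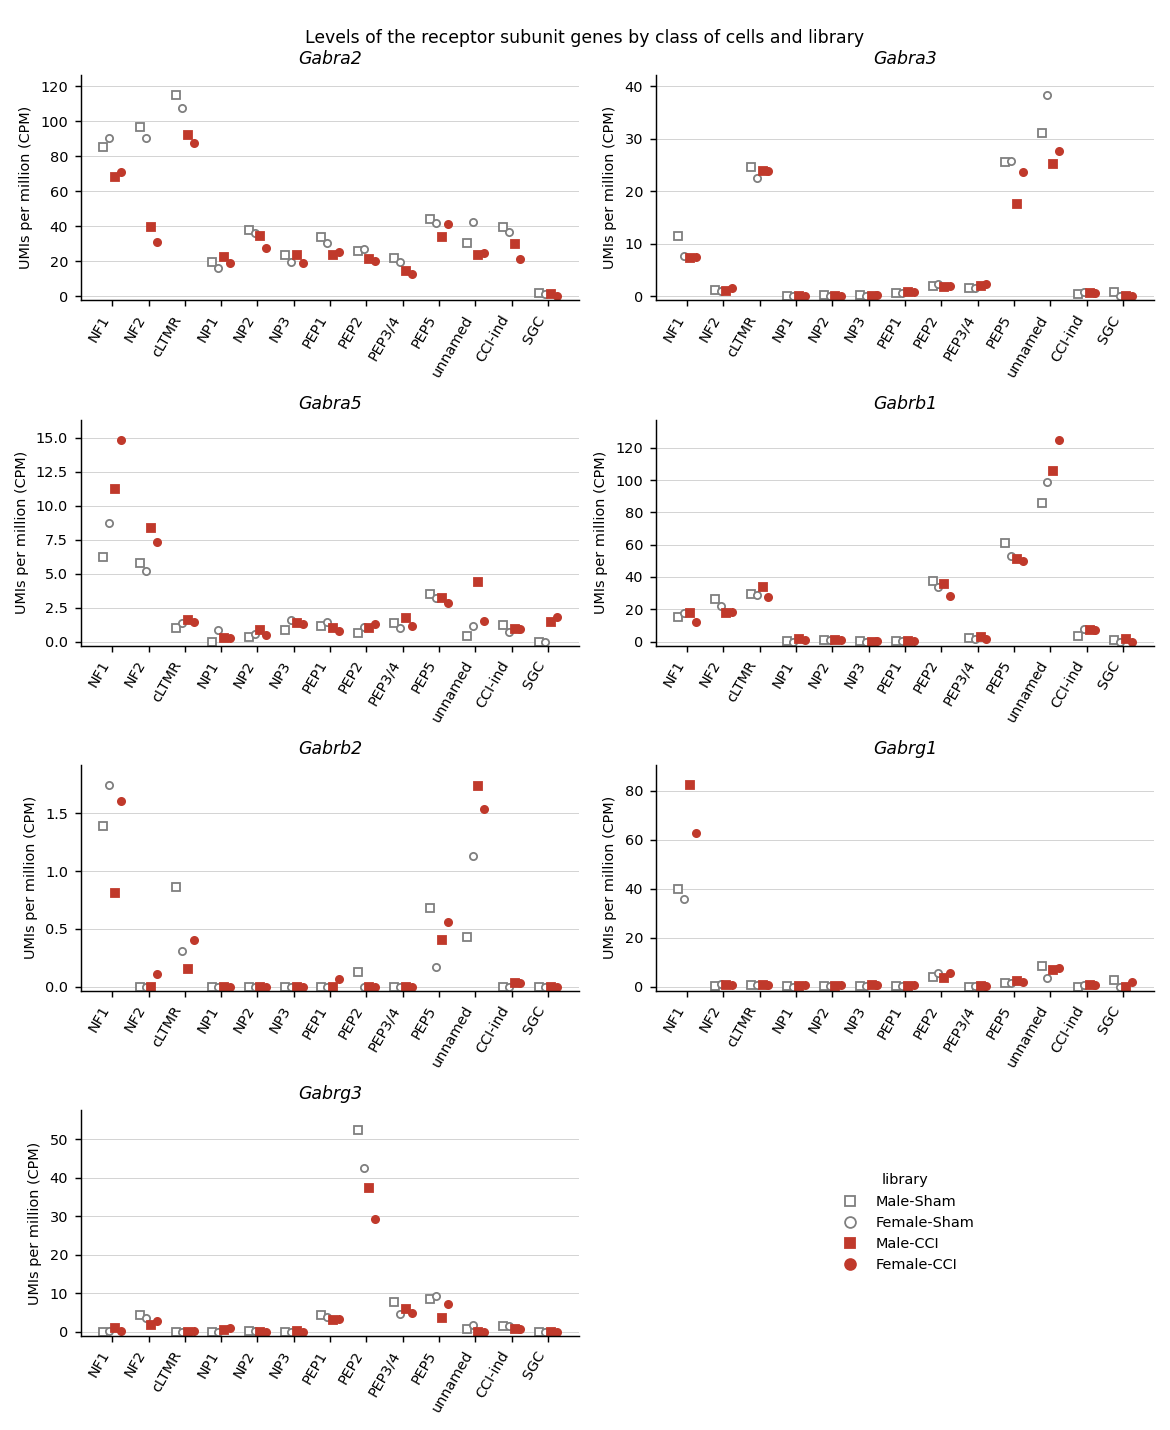
Level of each subunit gene (CPM) by class of cells; open symbols are the sham and filled symbols the CCI libraries, squares male and circles female. *Gabra2* was found in every neuronal class, *Gabrg1* was highest in NF1 and *Gabrg3* in PEP2, while satellite glial cells (SGC) held 0 to 3 UMIs of a gene in a library.

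**Figure D2:**
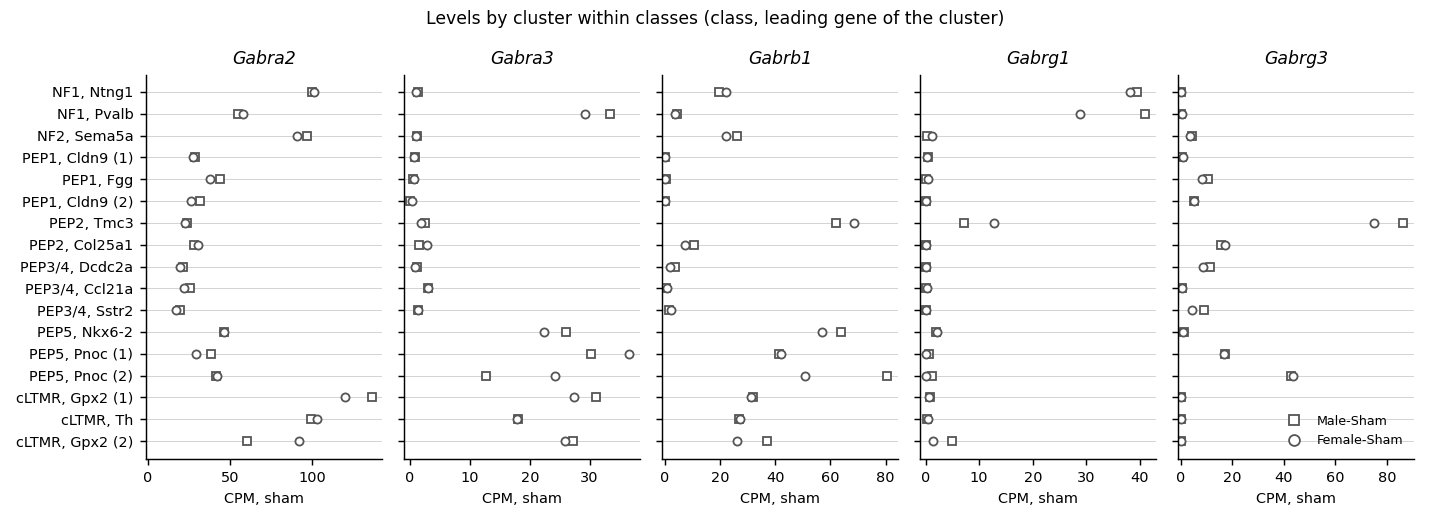
Level of 5 of the genes in the clusters that make up each class, in the sham libraries (square male, circle female); rows give the class and the gene that leads the cluster. *Gabra3* separates the *Pvalb*-led from the *Ntng1*-led NF1 cluster, and *Gabrb1*, *Gabrg1*, and *Gabrg3* separate the *Tmc3*-led from the *Col25a1*-led PEP2 cluster.

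Satellite glial cells, 558 of the kept cells that were not neurons, gave the level of each gene outside neurons. *Gabra2* had 2 and 1 UMIs in the 186 and 145 SGC-like cells of Male-Sham and Female-Sham and 1 and 0 in the 118 and 109 of Male-CCI and Female-CCI, or 1.08% (0.130 to 3.83%), 0.690% (0.0175 to 3.78%), 0.847% (0.0215 to 4.63%), and 0% (3 cells of 109, the limit taken for a count of 0, would be 2.75%) of these cells with a UMI, at median depths of 5125, 4188, 5160, and 4416 UMIs. The highest level of a member in SGC-like cells was that of *Gabrg1* in Male-Sham, with 3 UMIs or 2.69 CPM. Levels of a neuronal class in this range, such as those of *Gabrb2*, are given as values and compared between groups. They were not tested against SGC-like cells and are no claim that the class expresses the gene. Neurons were deeper (medians of 45172, 32490, 56457, and 43527 UMIs), so each neuron was thinned to 10000 UMIs before shares were compared, which left out 206, 302, 117, and 228 shallower neurons. *Gabra2* was then found in 33.3% (31.6 to 35.0%) and 30.6% (29.3 to 31.9%) of neurons of the sham libraries and in 23.9% (22.3 to 25.6%) and 21.3% (19.9 to 22.7%) of the CCI libraries. Without thinning the shares were 69.6, 59.7, 64.4, and 52.5%. At 10000 UMIs no UMI of any of the 7 genes was found in 53.2% (51.5 to 55.0%) and 56.0% (54.6 to 57.4%) of sham neurons and in 64.0% (62.2 to 65.8%) and 66.7% (65.0 to 68.2%) of CCI neurons, and an alpha, a beta, and a gamma gene of the 7 were found in the same neuron in 1.17% (0.821 to 1.62%), 0.648% (0.446 to 0.908%), 0.593% (0.339 to 0.961%), and 0.323% (0.161 to 0.577%). Without thinning the shares with none of the 7 genes were 18.5 and 27.8% in sham and 23.5 and 34.0% in CCI, and those with all 3 kinds 6.40 and 3.76% against 5.47 and 2.69%. The shares with *Gabra2* and with none of the genes were separate between the surgeries only after thinning, and for the 3 kinds together the intervals of both sham libraries overlapped that of Male-CCI even then. With 2 libraries a surgery no exact permutation test of a share could go below p = 0.333.

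The genes most like each member were found among 12656 genes by Pearson correlation of log2 levels over 48 points, the 12 neuronal groups of the 4 libraries. The points share libraries and classes, so the coefficients are a description. They were *Enpp2* (0.875), *P2ry1* (0.874), a marker used to name cLTMR, and *Scn4b* (0.866) for *Gabra2*. For *Gabra3* they were *Zfp521* (0.960), *Chchd10* (0.939), and *Gria3* (0.937), and for *Gabra5* *P2rx6* (0.885), *Cdh12* (0.870), and *Dgkb* (0.867). *Gabrb1* was followed by *Rprm* (0.958), *Dixdc1* (0.938), and *Pak7* (0.902). *Gabrg1* was most like *Hs3st2* (0.901) and *Ntng1* (0.895), both markers used to name NF1, and *Wnt7a* (0.894), and *Gabrg3* was most like *Adamtsl2* (0.919), *Hmgn5* (0.885), and *Ssc5d* (0.883). *Gabrb2* was too low to be ranked.

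Over all neurons, 3 of the 7 genes were lower after CCI and none was higher. A gene was called at a Benjamini-Hochberg adjusted p below 0.05 over all genes tested and an absolute log2 fold change above 0.5 in edgeR's quasi-likelihood test, with n = 2 libraries per surgery. Of the 17232 genes tested 27.8% were called, 12.7% as lower, so a large share of all genes differed and the members' count is to be read against that. *Gabra2* had 47.9 and 44.8 CPM in Male-Sham and Female-Sham and 33.2 and 28.0 CPM in Male-CCI and Female-CCI. Both CCI libraries were below both sham libraries, and the log2 fold change was -0.54 ± 0.09 (SE), adjusted p = 0.00307. Female-CCI was the lowest of the 4, and without it the fold change was -0.42 (adjusted p = 0.00335), short of the threshold on size. *Gabra3* had 6.31 and 6.17 CPM in the sham and 2.78 and 3.42 CPM in the CCI libraries. It was lower in both sexes without overlap and fell to a fitted 0.517 of its sham level over both, a log2 fold change of -0.95 ± 0.11 (SE), adjusted p = 4.55e-04. *Gabrg3* had 5.29 and 5.30 CPM against 2.72 and 2.68 CPM, with the replicates of each surgery close together, and a log2 fold change of -0.92 ± 0.08 (SE), adjusted p = 1.63e-04.

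The other 4 genes were not called. *Gabrb1* had 12.7 and 12.8 CPM in sham and 10.8 and 9.75 CPM in CCI, without overlap, but the log2 fold change of -0.25 ± 0.07 (SE), adjusted p = 0.0239, was below the size threshold. *Gabra5* had 1.63 and 1.77 CPM against 2.23 and 1.80 CPM, and both CCI libraries were above both sham libraries by little (0.30 ± 0.15 (SE), adjusted p = 0.120). *Gabrb2* rested on 73 UMIs in sham and 35 in CCI, with 0.265 and 0.158 CPM against 0.0922 and 0.125 CPM (-0.89 ± 0.36 (SE), adjusted p = 0.0742). It was called as lower, at -1.23 (adjusted p = 0.0321), when Female-Sham was left out. *Gabrg1* had 3.82 and 2.72 CPM against 5.71 and 2.77 CPM. Its Male-CCI level stood above the other 3 libraries while Female-CCI lay between the sham levels (0.44 ± 0.42 (SE), adjusted p = 0.435), and without Female-CCI the gene was called as higher at 0.87 (adjusted p = 0.0265). Without Male-CCI its value was -0.19 (adjusted p = 0.537), so its direction over all neurons rested on that library.

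The neurons summed here changed in kind between the surgeries, since 45.0 and 44.0% of CCI neurons were CCI-ind. The summed level of 7 satellite glial markers in neurons was 1234 and 1544 CPM in sham and 808 and 1004 CPM in CCI, and its part in these results was not tested. All 4 libraries had every one of these 7 markers above 0 in neurons.

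**Figure D3:**
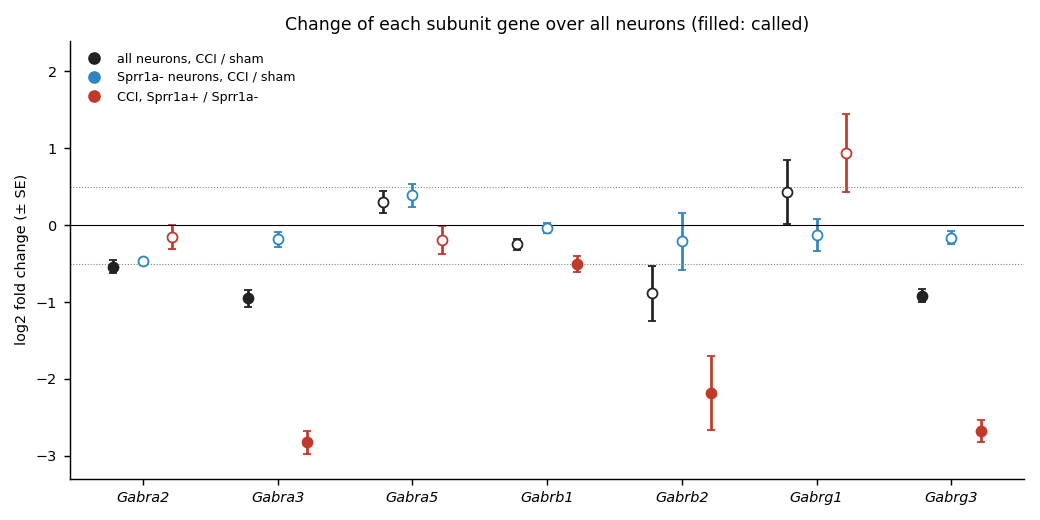
Log2 fold change (± SE) of each gene over all neurons (black), in *Sprr1a*- neurons (blue), both CCI over sham, and in *Sprr1a*+ over *Sprr1a*- neurons of the CCI libraries (red). Filled symbols were called, and dotted lines mark 0.5 and -0.5; the red symbols of *Gabra3*, *Gabrg3*, and *Gabrb2* are the lowest.

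Neurons at or below the *Sprr1a* limit were compared next. They were not free of injury marks in CCI, since their *Sprr1a* level was 0.47 and 1.24 CPM in the sham and 23.1 and 27.0 CPM in the CCI libraries, and the summed level of 11 CCI-ind markers was 47.9 and 53.2 CPM against 133.9 and 162.4 CPM. The part of this difference in the results was not tested. Of 16406 genes 4.47% were called, and none of the 7 members was, by edgeR or by DESeq2, although 2 had an unadjusted p below 0.05 in edgeR. *Gabra2* came nearest. It had 48.0 and 45.1 CPM in the sham and 34.7 and 33.5 CPM in the CCI libraries. Both CCI libraries were lower and close to each other, and the log2 fold change of -0.47 ± 0.04 (SE), adjusted p = 0.00373, fell short only of the size threshold. In these neurons the summed level of 6 cLTMR markers was 196 and 212 CPM in sham and 132 and 171 CPM in CCI, and that of 7 satellite glial markers 1246 and 1566 CPM against 1040 and 1102 CPM, and their part in the *Gabra2* value was not tested. Without Female-Sham the *Gabra2* change was -0.51 (adjusted p = 0.00976), and when every neuron with a *Sprr1a* UMI was set aside as injured it was -0.63 (adjusted p = 6.22e-04), both called. *Gabra3* had 6.40 and 6.36 CPM against 5.20 and 6.21 CPM, *Gabrg3* 5.37 and 5.45 CPM against 5.06 and 4.77 CPM, and *Gabrb1* 12.8 and 12.9 CPM against 13.3 and 12.3 CPM, where the sham and CCI levels of *Gabrb1* overlapped. Their log2 fold changes of -0.18, -0.16, and -0.03 had adjusted p values of 0.238, 0.224, and 0.756. *Gabra5* (0.39, adjusted p = 0.126), *Gabrb2* (-0.21, adjusted p = 0.739), and *Gabrg1* (-0.13, adjusted p = 0.709) did not pass either.

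Within the classes, 40 of 70 pairs of gene and class had enough counts to be tested in *Sprr1a*- neurons, and 3 were called, against 3.24% of the 120729 pairs of all genes. The NF2 class held all of the called pairs but 1. *Gabra2* in NF2 had 96.5 and 90.7 CPM in sham and 58.8 and 37.6 CPM in CCI, from 171 and 110 neurons. Both CCI libraries were far below both sham libraries, and the log2 fold change was -0.92 ± 0.17 (SE), adjusted p = 0.0192. *Gabra5* in NF2 moved the other way, from 5.81 and 5.19 CPM (61 UMIs) to 20.4 and 13.8 CPM (129 UMIs), a 3.16-fold rise with both CCI libraries above both sham libraries (1.66 ± 0.25 (SE), adjusted p = 0.00396). In this class 1.92% of all genes were called. *Sprr1a* itself had 1.02 and 1.15 CPM in these NF2 neurons of sham and 31.7 and 32.0 CPM in those of CCI, the 11 CCI-ind markers together 70.0 and 71.7 CPM against 122.6 and 279.9 CPM, and only 9 and 15 of the CCI neurons had no *Sprr1a* UMI at all. Their part in both NF2 changes was not tested. The third pair was *Gabra2* in PEP3/4, where 3.56% of all genes were called. It had 22.01 and 19.6 CPM against 14.8 and 12.9 CPM, again without overlap (-0.61 ± 0.11 (SE), adjusted p = 0.00291), and without Female-CCI it was -0.50 (adjusted p = 0.052). The summed level of 7 satellite glial markers in these PEP3/4 neurons was 2530 and 2825 CPM in sham and 1915 and 2119 CPM in CCI, that of 11 CCI-ind markers 42.2 and 57.2 CPM against 75.8 and 83.5 CPM, and that of 8 PEP1 markers 121 and 130.3 CPM against 192 and 231 CPM, and their part in the change was not tested.

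*Gabra2* was below its sham level in the fitted values of 9 of the 10 classes, NP1 being the exception at 0.21 (adjusted p = 0.695), and the small NP3 value of -0.05 changed sign in 5 alternatives, among them 0.04 at both other cluster resolutions and 0.43 with any *Sprr1a* UMI as the limit. In 4 more classes its adjusted p was below 0.05 with a change too small to be called. In cLTMR neurons, where the gene is highest, it had 115 and 108 CPM against 92.4 and 87.4 CPM (-0.36 ± 0.07 (SE), adjusted p = 0.00546). PEP1 had 33.9 and 30.4 CPM against 23.9 and 24.8 CPM (-0.38 ± 0.08 (SE), adjusted p = 0.0114), NP2 -0.27 (adjusted p = 0.0360), and PEP2 -0.37 (adjusted p = 0.0484). In NF1 the levels of 85.5 and 90.5 CPM and 66.8 and 72.3 CPM did not overlap either, but the change did not pass (-0.30 ± 0.09 (SE), adjusted p = 0.111). *Gabrg3* in PEP2, where it was highest, had 52.4 and 42.6 CPM against 37.2 and 29.6 CPM. Both CCI libraries were lower, and the log2 fold change of -0.49 ± 0.11 (SE), adjusted p = 0.00728, lay just inside the size threshold. It was called with the sex of the library as a block (-0.51), under DESeq2 (-0.50), and without Male-CCI (-0.65) or Female-Sham (-0.63). Within PEP2, for which no test was run by cluster, *Gabrg3* had 15.6 and 17.3 CPM in sham and 9.58 and 8.39 CPM in CCI in the *Col25a1*-led cluster, and 86.4 and 75.1 CPM and 77.3 and 64.1 CPM in the *Tmc3*-led one.

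*Gabra3*, *Gabrb1*, and *Gabrg1* did not pass the test in *Sprr1a*- neurons of cLTMR, PEP5, and NF1, classes where each was high. *Gabra3* had 24.6 and 22.6 CPM against 23.9 and 23.9 CPM in cLTMR (-0.03 ± 0.10 (SE), adjusted p = 0.900). *Gabrb1* had 60.9 and 52.9 CPM against 51.6 and 52.2 CPM in PEP5 (-0.16 ± 0.09 (SE), adjusted p = 0.320), and *Gabrg1* had 39.9 and 35.9 CPM against 38.3 and 37.2 CPM in NF1 (0.04 ± 0.11 (SE), adjusted p = 0.923). The levels of these 3 pairs lay within or close to the spread of the sham libraries. *Gabrg3* in PEP5 did not pass at -0.67 ± 0.26 (SE), adjusted p = 0.113, from 8.65 and 9.32 CPM and 3.69 and 7.86 CPM, and passed with the block (-0.66, adjusted p = 0.0266) and without Female-CCI (-1.32, adjusted p = 0.0437).

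**Figure D4:**
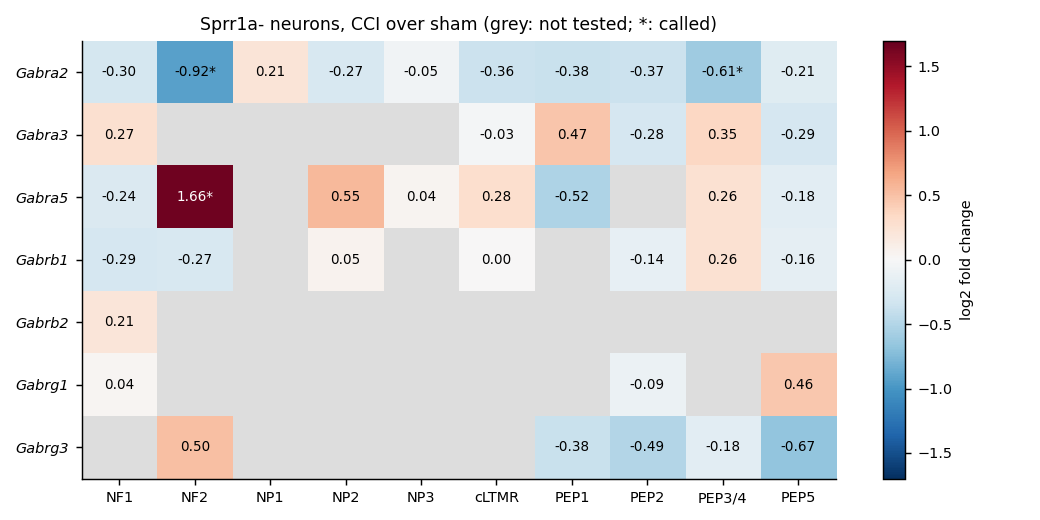
Log2 fold change of each gene (rows) in *Sprr1a*- neurons of each class (columns), CCI over sham; blue is lower and red higher in CCI, grey pairs had too few counts to be tested and a star marks a called pair. *Gabra2* is blue in all classes but NP1, and the star on red is *Gabra5* in NF2.

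In the CCI libraries, *Sprr1a*+ neurons were set against *Sprr1a*- neurons of the same ganglia, and 4 of the 7 genes were lower and none higher. Between these neurons 45.0% of 16240 genes were called, 24.5% as lower. The reference is the *Sprr1a*- side of the previous comparison, so the results are not independent of it. *Gabra3* fell from 5.20 and 6.21 CPM in *Sprr1a*- neurons of Male-CCI and Female-CCI to 0.738 and 0.682 CPM in *Sprr1a*+ neurons. That is 7.10-fold lower in the fit (-2.83 ± 0.15 (SE), adjusted p = 9.39e-06). *Gabrg3* fell from 5.06 and 4.77 CPM to 0.738 and 0.620 CPM, or 6.39-fold (-2.68 ± 0.15 (SE), adjusted p = 9.30e-06). For both genes the spread between the libraries was far smaller than the difference. *Gabrb1* went from 13.3 and 12.3 CPM to 8.76 and 7.26 CPM (-0.50 ± 0.10 (SE), adjusted p = 0.00441), a change at the size threshold that was lost without the *Sprr1a*- neurons of Male-CCI (-0.45) or the *Sprr1a*+ neurons of Female-CCI (-0.37). *Gabrb2* had 29 UMIs in *Sprr1a*- and 6 in *Sprr1a*+ neurons (-2.18 ± 0.48 (SE), adjusted p = 0.00610). It did not pass under DESeq2 (-2.22, adjusted p = 0.0815) or without the *Sprr1a*- neurons of Female-CCI (adjusted p = 0.0506).

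*Gabra2*, which fell over all neurons, did not pass the test between *Sprr1a*+ and *Sprr1a*- neurons, with 34.7 and 33.5 CPM against 31.9 and 22.6 CPM (-0.15 ± 0.16 (SE), adjusted p = 0.440). The female *Sprr1a*+ neurons were the lowest. *Gabra5* had 2.53 and 2.04 CPM against 1.98 and 1.56 CPM (-0.19 ± 0.18 (SE), adjusted p = 0.380). *Gabrg1* had 3.59 and 2.60 CPM against 7.51 and 2.94 CPM, higher in Male-CCI and nearly level in Female-CCI (0.94 ± 0.51 (SE), adjusted p = 0.173). With the library as a block it was called at 0.86 (adjusted p = 0.045), and without the *Sprr1a*+ neurons of Female-CCI at 1.46 (adjusted p = 0.00118). Before TMM scaling the median gene had a log2 CPM ratio of -0.17 in this comparison, and the fold changes are relative to the scaled median of about 0. The classes of both sides differ, since most *Sprr1a*+ neurons were CCI-ind, and the changes were therefore also taken within classes.

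At the cluster resolution used, NF1, NF2, and NP1 had at least 10 *Sprr1a*+ neurons in both CCI libraries beside 10 *Sprr1a*- neurons in both sham libraries. At resolution 0.4 PEP5 had 149 and 160 *Sprr1a*+ neurons as well, and *Gabra3* (-2.56), *Gabrb1* (-0.94), and *Gabrg3* (-2.60) were called lower there of 6 members tested, where 46.4% of all genes were called. The PEP5 class then took in the *Prss12*-led cluster, which is CCI-ind at the resolution used and holds 149 and 154 of the CCI neurons of this PEP5 class but 1 and 5 of the sham neurons, so the sides lie in different clusters. The *Sprr1a*+ neurons of NF1 and NF2 kept the name of their class with weaker markers. The summed level of 10 NF1 markers was 354 and 494 CPM in *Sprr1a*+ NF1 neurons of Male-CCI and Female-CCI against 1773 to 2401 CPM in *Sprr1a*- NF1 neurons, the 8 NF2 markers had 218 and 295 CPM against 992 to 1121 CPM, and the 11 CCI-ind markers had 674 and 759 CPM against 49.9 to 108 CPM in NF1 and 1114 and 1300 CPM against 70.0 to 279.9 CPM in NF2. Of 21 pairs of gene and class 11 were tested and 7 called, against 43.6% of the 35257 pairs of all genes. Unscaled, the median gene had a log2 CPM ratio of -0.38 in NF1, -0.24 in NF2, and -0.05 in NP1, and fold changes are given after TMM scaling. The *Sprr1a*- sham neurons are those of the comparison within classes above, so both share their reference.

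In NF1, where 45.5% of all genes were called, the gamma subunit *Gabrg1* rose. It had 39.9 and 35.9 CPM in 313 sham neurons and 135 and 112 CPM in 87 *Sprr1a*+ neurons of Male-CCI and Female-CCI. Both injured samples stood far above both sham samples, by 4.15-fold in the fit (2.05 ± 0.12 (SE), adjusted p = 1.21e-08). *Sprr1a*- NF1 neurons of the same CCI libraries had 38.3 and 37.2 CPM, next to the sham level. The alpha subunit *Gabra5* rose with it, from 6.26 and 8.73 CPM to 18.9 and 28.2 CPM, or 3.73-fold (1.90 ± 0.23 (SE), adjusted p = 1.46e-05), while *Sprr1a*- NF1 neurons of CCI had 4.83 and 7.93 CPM. *Gabrg1* and *Gabra5* were among the genes used for clustering, and *Gabrg1* is 1 of the 10 leading genes of the *Ntng1*-led NF1 cluster, so that the choice of these cells was not independent of them. With all 7 members left out of the clustering, a setting added after the data were seen, 88 *Sprr1a*+ neurons fell in NF1, and the log2 fold changes were 2.05 (adjusted p = 1.65e-08) for *Gabrg1* and 1.90 (adjusted p = 1.65e-05) for *Gabra5*. *Gabra2* had a fitted log2 fold change of 0.00 ± 0.10 (SE), adjusted p = 0.992, although its CPM was 85.5 and 90.5 CPM against 70.3 and 69.3 CPM, since the scaling moves this class.

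*Gabra3* was lower in *Sprr1a*+ NF1 neurons, with 11.4 and 7.76 CPM against 1.77 and 1.76 CPM (-2.11 ± 0.41 (SE), adjusted p = 6.14e-04), but this moved with the clusters. Of the 87 *Sprr1a*+ NF1 neurons 83 lay in the *Ntng1*-led cluster and 4 in the *Pvalb*-led one, whereas the sham neurons were 214 and 99. Within the *Ntng1*-led cluster, a setting added after the data were seen, *Gabra3* was too low to be tested, at 1.35 and 1.02 CPM in sham and 1.78 and 1.26 CPM in *Sprr1a*+ neurons. *Gabrg1* and *Gabra5* rose within this cluster too, where 47.3% of genes were called. *Gabrg1* went from 39.4 and 38.1 CPM to 134 and 102 CPM (1.96 ± 0.13 (SE), adjusted p = 1.21e-09) and *Gabra5* from 7.33 and 9.56 CPM to 18.7 and 29.1 CPM (1.69 ± 0.22 (SE), adjusted p = 2.46e-06). *Gabrb2* had 36 UMIs in NF1 neurons of sham, of which 35 lay in this cluster, against 1 in its *Sprr1a*+ neurons, a ratio of sham to *Sprr1a*+ of 12.7 (exact 95% interval 2.14 to 517), adjusted p = 0.00687 in edgeR. Over the whole NF1 class the ratio was 9.62 (exact 95% interval 1.62 to 390.2) with adjusted p = 0.0307, which was lost under DESeq2 (adjusted p = 0.194) and without Male-CCI (adjusted p = 0.144) or Female-CCI (adjusted p = 0.112).

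*Gabrb1* in NF1 did not pass (0.53 ± 0.26 (SE), adjusted p = 0.114), and its *Sprr1a*+ level of 22.6 and 10.6 CPM spread on both sides of the sham levels of 14.9 and 17.8 CPM. Without Female-CCI it was called at 0.86 (adjusted p = 0.00217). *Gabrg3* had too few counts in NF1 to be tested, with 3 UMIs in sham and 10 in *Sprr1a*+ neurons, all 10 of them from Male-CCI.

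In NF2, where 43.7% of all genes were called, 3 of the 4 members tested fell and none rose. *Gabra2* fell from 96.5 and 90.7 CPM in 171 sham neurons to 30.7 and 25.2 CPM in 167 *Sprr1a*+ neurons, 2.82-fold in the fit (-1.49 ± 0.13 (SE), adjusted p = 7.05e-06). The *Sprr1a*- NF2 neurons of CCI lay between these levels. The summed level of 4 Schwann cell markers was 19.3 and 19.8 CPM in these sham neurons and 0.93 and 1.87 CPM in the *Sprr1a*+ ones, and its part in the NF2 results was not tested. *Gabrg3* went from 45 UMIs in sham to 2, a ratio of sham to *Sprr1a*+ of 25.2 (exact 95% interval 6.57 to 214), adjusted p = 8.34e-04 in edgeR. *Gabra5* had 5.81 and 5.19 CPM against 2.91 and 1.67 CPM, lower without overlap (-0.96 ± 0.37 (SE), adjusted p = 0.0481). This call was lost under DESeq2 (adjusted p = 0.24), at both other cluster resolutions, with doublets kept, and without Male-Sham (-0.90), Female-Sham (-1.05), or Female-CCI (-0.64), and the direction turned (0.51, adjusted p = 0.108) when any *Sprr1a* UMI made a neuron *Sprr1a*+. *Gabrb1* had 26.1 and 22.3 CPM against 16.8 and 17.5 CPM (-0.27 ± 0.15 (SE), adjusted p = 0.163).

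Set against *Sprr1a*- neurons of their own CCI libraries, a comparison added after the data were seen, NF2 and NF1 neurons differed in the sign of *Gabra5*. Both sides come from the same libraries, but these fits held no block for the library. DESeq2, the block, and leaving out a library were not run for them. In NF2, where 33.6% of genes were called, *Gabra5* had 20.4 and 13.8 CPM in *Sprr1a*- and 2.91 and 1.67 CPM in *Sprr1a*+ neurons (-2.62 ± 0.33 (SE), adjusted p = 5.38e-05). In NF1, where 42.8% were called, it had 4.83 and 7.93 CPM and 18.9 and 28.2 CPM (2.15 ± 0.27 (SE), adjusted p = 4.92e-06). The levels of both classes were separate in both sexes, but the difference between the classes was not tested. *Gabrg3* in NF2 had 43 UMIs in *Sprr1a*- and 2 in *Sprr1a*+ neurons, a ratio of 34.4 (exact 95% interval 8.97 to 293). *Gabrg1* in NF1 was higher in *Sprr1a*+ neurons here too (2.02 ± 0.13 (SE), adjusted p = 1.11e-09), and *Gabra3* lower (-2.36 ± 0.38 (SE), adjusted p = 6.07e-05). The clusters moved with this *Gabra3* difference as well, since the *Sprr1a*- NF1 neurons of CCI were 65 *Ntng1*-led and 53 *Pvalb*-led and the *Sprr1a*+ ones 83 and 4. *Gabrb1* in NF1 passed at 0.81 ± 0.27 (SE), adjusted p = 0.0231, but its *Sprr1a*+ levels of 22.6 and 10.6 CPM lay on both sides of the *Sprr1a*- levels of 13.0 and 12.8 CPM, and within the *Ntng1*-led cluster, where 39.3% of genes were called and *Gabrg1* and *Gabra5* were the members called, it was 0.10 (adjusted p = 0.787).

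**Figure D5:**
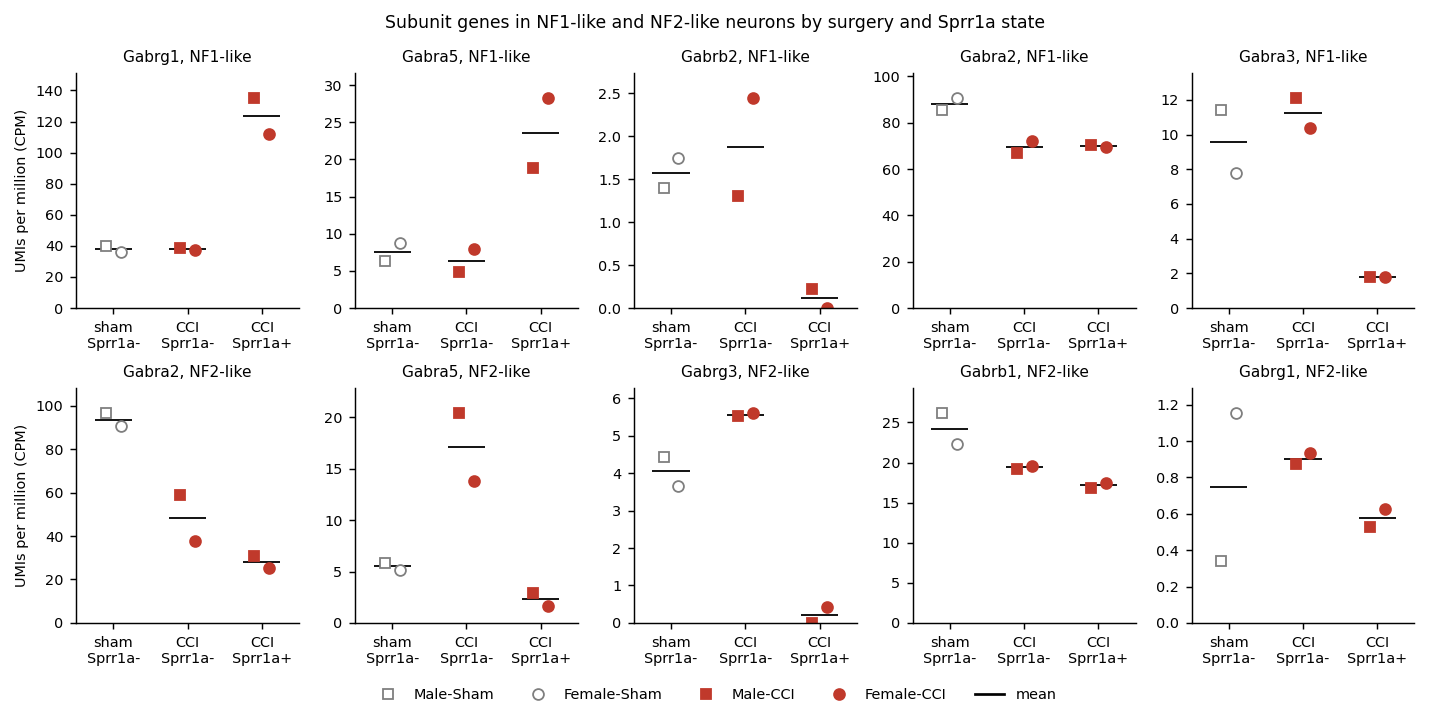
Level (CPM) of 5 genes in NF1 (top row) and of 5 in NF2 neurons (bottom row) of sham and in *Sprr1a*- and *Sprr1a*+ neurons of CCI; each symbol is a library (square male, circle female, open sham, filled CCI) and the bar their mean. *Gabrg1* and *Gabra5* stand high in *Sprr1a*+ NF1 neurons, and *Gabra5* is high in *Sprr1a*- NF2 neurons and low in *Sprr1a*+ ones.

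Thinned to 10000 UMIs, the share of NF1 neurons with a *Gabrg1* UMI was 28.4% (21.1 to 36.6%) and 24.4% (17.9 to 31.9%) in sham and 58.0% (43.2 to 71.8%) and 44.8% (26.4 to 64.3%) in *Sprr1a*+ neurons, and that with a *Gabra5* UMI was 4.96% (2.02 to 9.96%) and 11.5% (6.98 to 17.6%) against 34.0% (21.2 to 48.8%) and 17.2% (5.85 to 35.8%). Without thinning the shares with *Gabrg1* were 76.4 and 69.7% against 87.3 and 68.8%, and those with *Gabra5* 35.8 and 37.0% against 69.1 and 71.9%. *Gabrg1* thus stood in more thinned cells in both injured samples, with intervals that overlap in the female libraries. In SGC-like cells *Gabrg1* was found in at most 1.61% and *Gabra5* in at most 0.917% of the cells of a library.

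NP1 neurons, which carry itch signals, had 41.6% of all genes called, and *Gabra2* was the only member with enough counts. It had 20.2 and 14.7 CPM in sham and 22.9 and 18.9 CPM in *Sprr1a*+ neurons, which overlap (0.30 ± 0.19 (SE), adjusted p = 0.180). *Gabrb1* had 1 UMI in sham and 21 in *Sprr1a*+ NP1 neurons, and *Gabrg3* had 0 and 10, both too low to be tested. The clusters of the class differed between these sides. Of its *Sprr1a*- sham neurons 82 of 83 and 63 of 71 lay in the cluster led by *Sst*, and of its *Sprr1a*+ CCI neurons 97 of 98 and 111 of 113 in the cluster led by *Cd207*, which had none of the NP1 markers among its 10 leading genes, and no test was run by cluster. *Sprr1a*- NP1 neurons of CCI had 0 UMIs of *Gabrb1* and 2 of *Gabrg3*.

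CCI-ind neurons, of which 1227 of 1268 and 1525 of 1599 in Male-CCI and Female-CCI were *Sprr1a*+, are of a class that cannot be read from these clusters. In Male-CCI and Female-CCI they had 29.9 and 21.4 CPM of *Gabra2* and 7.44 and 6.97 CPM of *Gabrb1*. *Gabra5* was at 0.955 CPM in each. The 5 CCI-ind clusters differed. The cluster led by *Crh* had 57.8 and 51.1 CPM of *Gabra2*, 15.1 and 15.8 CPM of *Gabrb1*, and 3.84 and 4.31 CPM of *Gabra5*, and the cluster led by *Prss12* had 24.1 and 23.8 CPM of *Gabrb1* and 40.3 and 19.7 CPM of *Gabra2*. The cluster led by *Wfdc3* had 16.9 and 9.29 CPM of *Gabra2* and 1.71 and 2.17 CPM of *Gabrb1*. *Gabra3* was at 0.0607 and 0.0316 CPM in the largest of these clusters, led by *Krt16*. Between the *Sprr1a*+ and the 41 and 74 *Sprr1a*- CCI-ind neurons of Male-CCI and Female-CCI 2.75% of all genes were called, and no member of the 6 tested passed (adjusted p values of 0.363 or more, 0 with an unadjusted p below 0.05). *Gabrg3* had 1.27 and 1.62 CPM in *Sprr1a*- and 0.741 and 0.581 CPM in *Sprr1a*+ cells, levels that did not overlap (-1.09 ± 0.59 (SE), adjusted p = 0.384).

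The rest of the GABA system was followed by lists of named genes, each given by its counts. Of the 12 other receptor subunits 7 were tested over all neurons, and 4 were lower and 0 higher after CCI, with a median log2 fold change of -0.80 beside -0.01 over all genes. In *Sprr1a*- neurons none of 6 was called (median -0.12), and in *Sprr1a*+ against *Sprr1a*- neurons of CCI 4 of 5 were lower (median -2.81). The 7 members had medians of -0.54, -0.16, and -0.50 in the same comparisons. The background shares of 27.8, 4.47, and 45.0% apply to all counts here.

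Of 10 genes of chloride transport and its kinases, which set whether GABA depolarizes a cell, 1 was lower and 0 higher over all neurons (median 0.06). It was *Slc12a7*, a potassium-chloride cotransporter, with 9.74 and 9.93 CPM in sham and 4.94 and 5.46 CPM in CCI, lower in both sexes (-0.86 ± 0.07 (SE), adjusted p = 1.08e-04). In *Sprr1a*- neurons 0 of 10 were called, and between *Sprr1a*+ and *Sprr1a*- neurons 1 was higher and 2 were lower. Of 9 genes of GABA synthesis, release, uptake, and breakdown 8 were tested, and 2 were higher and 4 lower (median -0.62). *Gad2*, which makes GABA, was among the higher ones with 0.0925 and 0.116 CPM in sham and 0.541 and 0.475 CPM in CCI, low counts that were separate between the surgeries (2.32 ± 0.24 (SE), adjusted p = 3.26e-04). *Slc6a12*, a betaine and GABA transporter, had 0.0678 and 0.0844 CPM in sham and 0.129 and 0.175 CPM in CCI and was the other (1.04 ± 0.34 (SE), adjusted p = 0.0362), and *Slc6a13*, a GABA transporter, had 0.425 and 0.517 CPM in sham and 0.178 and 0.163 CPM in CCI and was lower (-1.41 ± 0.23 (SE), adjusted p = 0.00225). In *Sprr1a*- neurons 1 of 7 was higher and 0 lower, and in *Sprr1a*+ against *Sprr1a*- neurons 2 of 7 were higher and 3 lower.

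The metabotropic GABA-B receptor and its auxiliary subunits gave 1 higher and 1 lower of 6 over all neurons (median -0.21). *Kctd12*, an auxiliary subunit, was higher, with 0.339 and 0.295 CPM in sham and 0.965 and 1.26 CPM in CCI, separate in both sexes (1.87 ± 0.20 (SE), adjusted p = 3.82e-04). None of the 6 was called in *Sprr1a*- neurons, and 1 was higher and 3 were lower in *Sprr1a*+ against *Sprr1a*- neurons. Of 21 genes of receptor clustering and trafficking 2 were higher and 2 lower over all neurons (median -0.02), none was called in *Sprr1a*- neurons, and 4 were higher and 7 lower in *Sprr1a*+ against *Sprr1a*- neurons. *Nlgn2*, an adhesion protein of inhibitory synapses, had 27.0 and 28.3 CPM in sham and 41.5 and 39.7 CPM in CCI and was higher (0.61 ± 0.05 (SE), adjusted p = 1.16e-04), and *Lhfpl3* had 25.2 and 21.8 CPM in sham and 12.1 and 14.7 CPM in CCI and was lower (-0.76 ± 0.11 (SE), adjusted p = 0.00151). The lists hold genes that neurons use for other ends as well, and their counts describe these libraries.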

How the data were processed

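The files held UMI counts per gene and cell. Per the labels and the study's methods, the authors sorted GFP+ cells, made 3' droplet libraries, and deposited raw counts aligned to mm10. The file headers name Cell Ranger 3.0.2 and the submitters' processing notes 2.1.1. The members and gene lists were chosen with earlier results of these data known. Named were the members, the 3 genes most like each, and up to 3 called genes of a list. Of the 3 called genes of a list with the largest change over all neurons, only those with a RefSeq promoter window were named. The names therefore do not show the balance of a list, which its counts give.

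Cells with at least 1500 genes and at most 10% mitochondrial counts were kept. The study's numbers of doublets (837, 1381, 601, and 912) were removed in order of Scrublet score (scanpy 1.11.5), whose own threshold had found 2, 121, 0, and 0. Clusters were made with Seurat 5.3.0 (3000 variable genes, 20 components, resolution 0.8) and named where at least 3 markers were in 10% or more of cells at a 2-fold or higher level, unless another class had more markers among the 10 leading genes, or the class had none there and under 50% of its markers found. The *Calb1*-led cluster stayed unnamed by this last rule (3 of 8 PEP5 markers), and its match with doublets kept (4 of 8) was named PEP5. *Sprr1a*+ means a log-normalized value (scale factor 10000) above 1. CPM is the sum of counts over the total. Counts of at least 10 cells per library were summed and tested with edgeR 4.0.16 after its expression filter, with TMM scaling. Each library pools mice, so p-values measure the spread between pools. *Sprr1a*+ and *Sprr1a*- neurons of a CCI library come from the same mice and are paired by library, whereas between surgeries the replicate number stands for sex alone. DESeq2 1.42.0 with its size factors, no filter on low counts, a replicate block, other resolutions, doublets kept, another *Sprr1a* limit, and leaving out each library were the alternatives. Comparisons within classes of CCI and within the *Ntng1*-led cluster, and a clustering without the members' genes, were added after the data were seen. The comparisons within classes of CCI were fitted without the pairing by library and without these alternatives of test, block, and library. On simulated counts edgeR recovered 71 to 87% of genes changed by 1 on the log2 scale and called 4 to 14 unchanged genes. In each simulation 200 genes were changed, in random directions, and every sample was drawn independently. Comparisons with a large share of genes called, or with sides from the same libraries, differ from this setting, so these rates may not hold there. Genes similar to a member were sought among those above 5 CPM in some group (pseudocount 1).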

Additional observations from a re-analysis of the deposited data

Results flagged for a closer look

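Male and female libraries went opposite ways for *Gabrb1* in NF1 neurons. From *Sprr1a*- neurons of sham to *Sprr1a*+ neurons of CCI the log2 ratio of levels was 0.601 in the male and -0.747 in the female libraries. With 1 library per sex and surgery the difference between the sexes was not tested.

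*Gabra5* went up in injured NF1 neurons and down in injured NF2 neurons, with fitted log2 fold changes of 1.90 and -0.962 against the *Sprr1a*- sham neurons of each class. Both libraries of each class moved the same way. The difference between the classes was not tested, and the NF2 value turned when any *Sprr1a* UMI made a neuron *Sprr1a*+. The NF2 call was also lost under DESeq2, at both other cluster resolutions, and with doublets kept.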

How the results depend on the processing

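Of 763 alternative values for 72 changes of a member, 669 kept direction and side of the threshold, 20 lost and 18 gained a call, 55 changed sign without being called under either setting, and 1 called value turned, namely *Gabra5* in NF2 (0.51, adjusted p = 0.108) with any *Sprr1a* UMI as the limit. With that limit 1 member was called in *Sprr1a*- neurons, and leaving out a library gave 0 to 1. Leaving out a library gave 3 to 4 called members over all neurons, 3 to 4 between *Sprr1a*+ and *Sprr1a*- neurons, 3 to 4 pairs in *Sprr1a*- classes, and 5 to 6 pairs in *Sprr1a*+ classes. The *Sprr1a*+ against *Sprr1a*- comparison gave 4 called of 5 members tested within NF1, 0 of 6 within CCI-ind, 2 of 4 within NF2, 0 of 1 within NP1, and 2 of 4 within the *Ntng1*-led cluster. With the members left out of the clustering 4 of 40 pairs in *Sprr1a*- classes were called (3.28% of all), adding *Gabrg3* in PEP2, and 7 of 11 in *Sprr1a*+ classes. In *Sprr1a*- classes 5 of 63 pairs were called with no filter on low counts (3.13% of the pairs of all genes). The replicate block, which pairs libraries by sex, called 5 of 40 pairs there (4.6% of all), adding *Gabrg3* in PEP2 and PEP5. It called *Gabrg1* between *Sprr1a*+ and *Sprr1a*- neurons as well, and gave 3, 0, and 7 in the other comparisons, as without it. With doublets kept, more classes held *Sprr1a*+ neurons and 13 of 39 pairs were called, against 27.8% of the pairs of all genes and 43.6% without doublets. DESeq2 gave no adjusted p for *Gabra5* in NF2 of *Sprr1a*- neurons. These results rest on 2 libraries per surgery, and genes of few UMIs, *Gabrb2* first, were limited by depth.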
